A study of Mus musculus with 26 samples.

Results

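Heat shock proteins and molecular chaperones were followed in RNA sequencing of mouse striatum from Huntington's disease models. The members are the genes whose symbol marks them as Hsp70 or Hsp110 (Hspa, Hsph1), Hsp90, small heat shock protein (Hspb), mitochondrial chaperonin (Hspd1, Hspe1), J protein (Dnaja, Dnajb, Dnajc), cytosolic chaperonin (Cct) or Bag co-chaperone. This gave 78 genes of 14833 gene symbols, and 76 of them are in all 5 tables (Hspb2 and Hspb3 are not listed in the Elk-1 table). The study's 26 libraries form 9 groups. R6/1 mice, which carry a transgene with exon 1 of human huntingtin and an expanded repeat under the human promoter, were sampled at 4 weeks and at 8 weeks beside wild-type mice of the same age, with 3 libraries in each group. The CHL2 knock-in line, in which the mouse huntingtin gene carries an expanded repeat, was sampled at 1 year beside wild type, also with 3 libraries in each group. At 10 weeks, R6/1 mice that had received an adeno-associated virus (AAV) for the transcription factor Elk-1 gave 4 libraries, R6/1 mice with a control AAV gave 2 and wild-type mice with the control AAV gave 2. The promoter that drives Elk-1 in the AAV is not named in the labels. Neither the sex, zygosity and repeat length of the animals nor whether libraries came from separate animals is stated in the labels.

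The deposited tables hold 1 pooled value per group and gene, in FPKM (fragments scaled to transcript length and to library size), and no value per library. The spread between libraries and the depth per library are therefore unknown, and no SD can be given. The words rose and fell are kept for genes with an authors' deposited q below 0.05. Where an unadjusted p of the authors is given, the gene missed that threshold unless its q is stated. Each log2 fold change is the deposited one, of the first group named over the second. If libraries of a group shared an animal, these p-values measure technical spread. Striatal projection neuron markers were abundant in every group, with a summed FPKM of 1156 to 3325 over 10 genes and none at 0.

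Hsp70 proteins bind exposed hydrophobic stretches of unfolded proteins and release them in cycles of ATP hydrolysis. J proteins bring clients and start hydrolysis, while Hsp110 and Bag proteins exchange the nucleotide. Hsp90 acts later on clients such as kinases and receptors, small heat shock proteins hold unfolded proteins without ATP, and the chaperonins fold proteins inside a closed chamber. Many of these genes are induced by heat shock factor 1 (HSF1), which binds heat shock elements, inverted repeats of GAA and TTC. Chaperones are studied in Huntington's disease because several of them, among them Dnajb1, Dnajb6 and the cytosolic chaperonin, slow the aggregation of polyglutamine fragments in test tubes and cells.

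Promoters are shown for the pair of stress-inducible Hsp70 genes, for the inducible Hsp110 gene Hsph1, which holds the longer form of the element, and for Dnajb5, the J protein gene that fell in R6/1 mice. They come from RefSeq on GRCm38.p6 and run from 250 bases before to 50 after the start of the gene, read 5′ to 3′ along the gene. Capitals mark heat shock elements of 2 units (GAANNTTC or TTCNNGAA, both strands) in the first 3 and the ETS core CCGGAA, the letters bound by the factor family of Elk-1, in Dnajb5.
Hspa1a promoter, chr17:34972107-34972406, minus strand: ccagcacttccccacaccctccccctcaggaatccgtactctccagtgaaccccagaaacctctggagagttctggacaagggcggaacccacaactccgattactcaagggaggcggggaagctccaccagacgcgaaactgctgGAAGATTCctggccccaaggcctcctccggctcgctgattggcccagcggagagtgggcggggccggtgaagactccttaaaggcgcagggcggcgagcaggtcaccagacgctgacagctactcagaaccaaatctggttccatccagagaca
Hspa1b promoter, chr17:34959189-34959488, minus strand: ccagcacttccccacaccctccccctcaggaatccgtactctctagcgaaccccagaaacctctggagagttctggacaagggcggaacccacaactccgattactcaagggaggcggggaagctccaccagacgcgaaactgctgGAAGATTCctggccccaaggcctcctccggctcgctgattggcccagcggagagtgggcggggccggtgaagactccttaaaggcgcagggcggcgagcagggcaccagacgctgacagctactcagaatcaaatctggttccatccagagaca
Hsph1 promoter, chr5:149636287-149636586, minus strand: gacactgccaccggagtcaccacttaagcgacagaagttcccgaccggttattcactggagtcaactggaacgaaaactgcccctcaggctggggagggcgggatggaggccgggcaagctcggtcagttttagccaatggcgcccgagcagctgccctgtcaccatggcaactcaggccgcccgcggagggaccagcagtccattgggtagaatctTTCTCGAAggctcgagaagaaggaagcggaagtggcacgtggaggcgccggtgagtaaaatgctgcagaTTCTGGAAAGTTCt
Dnajb5 promoter, chr4:42949617-42949916, plus strand: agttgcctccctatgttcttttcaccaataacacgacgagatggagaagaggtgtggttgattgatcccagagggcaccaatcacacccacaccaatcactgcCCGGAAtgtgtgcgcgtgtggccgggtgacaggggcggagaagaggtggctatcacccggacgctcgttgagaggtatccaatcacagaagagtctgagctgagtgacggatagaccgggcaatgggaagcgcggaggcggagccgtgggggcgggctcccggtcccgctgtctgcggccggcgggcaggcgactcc
The Hspa1a and Hspa1b promoters differ at 4 of 300 bases and each holds 1 element of 2 units, at position -104 from the start. Hsph1 holds 3 overlapping or separate matches, 1 pair of which forms an element of 3 units. The Dnajb5 entry shown, 1 of 3 in RefSeq, holds 1 ETS core on either strand and no match of 2 heat shock units; another of the 3 entries holds no ETS core.

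RefSeq promoters were found for 64 members. An element of 2 units was present for 19 of them (29.7%), against 17.0% of 27025 genes with a promoter. An element of 3 units, which contains 2 overlapping elements of 2 units, was present for 4 members (6.25%: Dnajb6, Hspd1, Hspe1 and Hsph1), against 0.662% of genes. The ETS core was present for 22 members (34.4%), against 16.7% of genes; it can share letters with the heat shock element. A CArG box, the site of Elk-1's partner SRF, was found in 1 member, Dnajc16 (1.56%), against 1.81% of genes. The 27025 genes were not limited to those measured in striatum, and a gene counted when any of its promoter entries matched. The members were thus not set against genes alike in expression or in number of entries. The ETS core and the CArG box were searched after the changes had been seen, and a match is only a match of letters.

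Chaperone transcripts were abundant. Their median FPKM lay between 21.4 and 31.4 in the groups, against 9.95 to 12.996 for all genes. Hsp90ab1, the constitutive cytosolic Hsp90, was the highest member in every group, at 588 to 620 FPKM in the 4-week, 8-week and 1-year tables and 741 to 818 FPKM in the 10-week tables. The 3 Hsp90 genes held 23.4% to 26.0% of the summed member FPKM. Hspa8, the constitutive Hsp70 that also uncoats clathrin vesicles, lay at 125 to 201 FPKM over all tables. In the endoplasmic reticulum pair, Hsp90b1 lay at 128 to 196 FPKM and Hspa5 (BiP), its Hsp70, at 102 to 203 FPKM. The inducible Hspa1a and Hspa1b were near the bottom, at 0.763 to 5.44 FPKM. The tables were normalized separately, so levels are not compared between them here.

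Few chaperone genes passed the authors' test. In R6/1 mice at 4 weeks 0 of 78 members were called, where the authors' deposited table called 0.468% of all genes. At 8 weeks 1 of 78 fell, Dnajb5, where 6.12% of all genes were called and 5.34% were called lower. In CHL2 mice 1 of 78 rose, Hspa1b, where 3.65% of all genes were called and 1.67% were called higher. At 10 weeks, control-AAV R6/1 was set against control-AAV wild type (the 10-week genotype comparison), where 0 of 78 members and 3.24% of all genes were called. With Elk-1 AAV 0 of 76 members and 0.575% of all genes were called.

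At the authors' unadjusted p below 0.05, the members numbered 2 of 78 at 4 weeks (all genes 5.36%), 8 of 78 at 8 weeks (14.3%), 8 of 78 in CHL2 (13.3%), 6 of 78 in the 10-week genotype comparison (10.7%) and 0 of 76 with Elk-1 AAV (4.91%). Most member fold changes were small. At 8 weeks 78.2% of members lay within 0.2 log2 units of 0 in the authors' deposited table, against 65.0% of all genes whose mean FPKM was 0.5 or more. In CHL2 these shares were 78.2% and 68.3%, and in the 10-week genotype comparison 64.1% and 52.1%. Median log2 fold changes of the members were -0.01 at 4 weeks, 0.03 at 8 weeks, 0.02 in CHL2, 0.04 in the 10-week genotype comparison and -0.09 with Elk-1 AAV, with medians of all genes between 0.00 and 0.02. The plot of changes by class shows this narrow band.

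**Figure D1:**
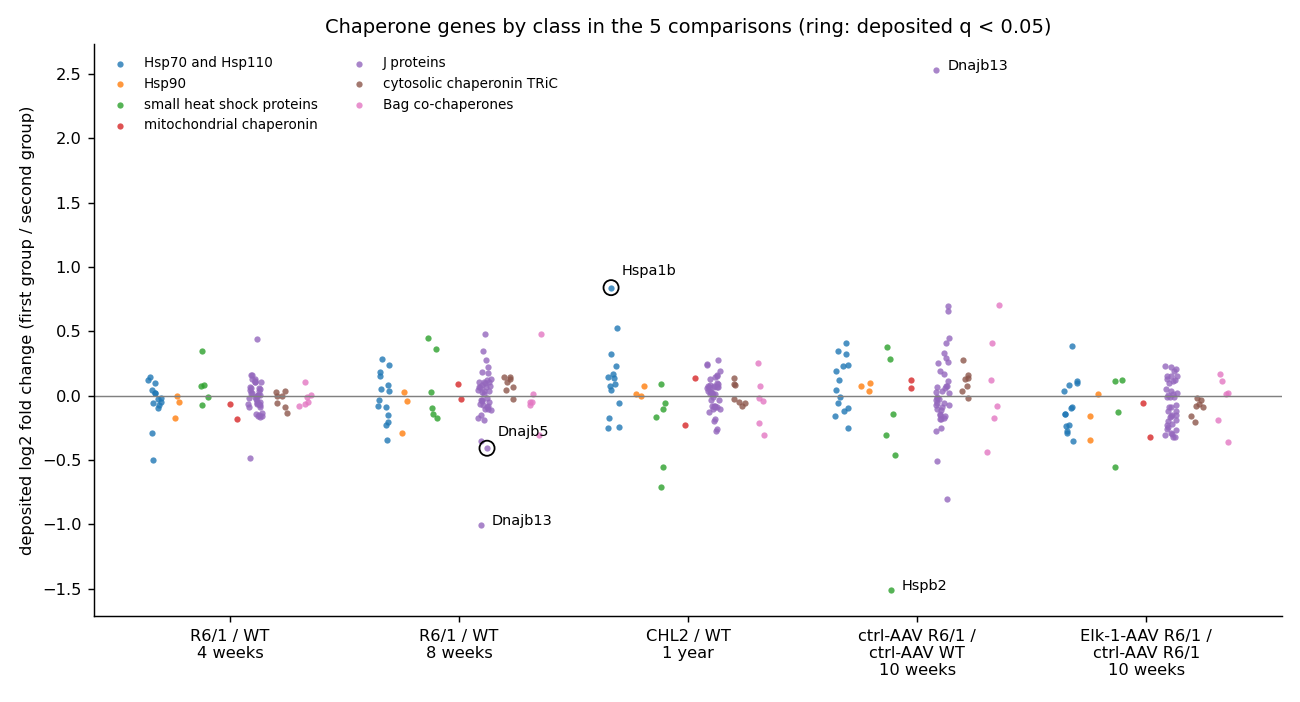
Deposited log2 fold changes (first group over second) of members whose mean FPKM was 0.5 or more, 1 point per gene, coloured by chaperone class, in the 5 comparisons; rings mark q below 0.05. Hspa1b in CHL2 and Dnajb5 in R6/1 at 8 weeks carry the only rings, while Dnajb13 and Hspb2, which lie farther from 0, were not called.

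The stress-inducible Hsp70 gene Hspa1b rose in CHL2 striatum. Hspa1b (mm9 chromosome 17, 35093373 to 35096183) stood at 3.68 FPKM in CHL2 mice and 2.06 FPKM in wild-type mice at 1 year (log2 fold change 0.84, q = 0.0128 by the authors' deposited table). Its neighbour Hspa1a had 4.14 FPKM in CHL2 mice and 2.87 FPKM in wild type (log2 fold change 0.53, p = 0.0064, q = 0.116 by the authors' deposited table). Both were higher in the CHL2 pool.

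In R6/1 mice the pair did not pass the test at any age. Hspa1b had 0.763 FPKM in R6/1 and 1.08 FPKM in wild type at 4 weeks (log2 fold change -0.50, p = 0.048, q = 0.922 by the authors' deposited table). At 8 weeks it had 0.890 FPKM in R6/1 and 1.13 FPKM in wild type. At 10 weeks it had 5.32 FPKM in control-AAV R6/1 and 4.50 FPKM in control-AAV wild type. Hspa1b was thus lower in the R6/1 pools at 4 and 8 weeks and higher at 10 weeks. Hspa1a went the other way at 8 weeks, with 1.41 FPKM in R6/1 and 1.27 FPKM in wild type. At 4 weeks Hspa1a had 1.18 FPKM in R6/1 and 1.44 FPKM in wild type. At 10 weeks Hspa1a had 2.83 FPKM in control-AAV R6/1 and 2.14 FPKM in control-AAV wild type. Whether the change in CHL2 differs from those in R6/1 was not tested, since lines, ages and tables differ together.

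Reads of the pair are hard to assign. Of the 50-base windows of the longest Hspa1a transcript, 58.8% also occur in Hspa1b, and 62.3% of those of Hspa1b occur in Hspa1a. Their summed FPKM, a measure added after the values were seen, was 7.83 in CHL2 and 4.93 in wild type, a log2 ratio of 0.67. The summed log2 ratio was -0.38 at 4 weeks, -0.06 at 8 weeks, 0.30 in the 10-week genotype comparison and -0.18 with Elk-1 AAV.

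None of the other heat-inducible genes was called in CHL2. Of 11 heat-inducible members, 8 had higher and 3 lower values in CHL2, with 1 called and a median log2 fold change of 0.14; after subtracting the median change of genes of similar transcript length the split was 10 higher and 1 lower. Dnajb1, the main J protein of the heat shock response, had 37.8 FPKM in CHL2 and 31.8 FPKM in wild type (log2 fold change 0.25, p = 0.0358, q = 0.315 by the authors' deposited table). Hsph1 had 102 FPKM in CHL2 and 92.2 FPKM in wild type and was not called. Hspb1, Hspe1 and Bag3 were the 3 with lower values before that correction, and Bag3, a co-chaperone of selective autophagy, had 4.24 FPKM in CHL2 and 4.29 FPKM in wild type.

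Beside this, all 10 projection neuron markers fell in CHL2, with a summed FPKM of 1597 in CHL2 and 3093 in wild type. Septal and hypothalamic markers were higher, with 6 of 7 called and a summed FPKM of 181 in CHL2 and 81.9 in wild type. All 6 oligodendrocyte markers had lower values, with 1 called and a summed FPKM of 3157 in CHL2 and 4561 in wild type. The part of these markers in the Hspa1b result was not tested. In bulk tissue, fewer cells of a type and less RNA per cell cannot be told apart.

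In R6/1 mice the heat-inducible list held no called gene at any age. It had 4 higher and 7 lower values at 4 weeks, 8 and 3 at 8 weeks and 9 and 2 in the 10-week genotype comparison, with median log2 fold changes of -0.02, 0.03 and 0.12; the length correction turned the split at 8 weeks to 6 higher and 5 lower. Hspa8 came nearest at 8 weeks, with 152 FPKM in R6/1 and 125 FPKM in wild type (log2 fold change 0.29, p = 0.029, q = 0.245 by the authors' deposited table). At 10 weeks Hspa8 had 182 FPKM in control-AAV R6/1 and 143 FPKM in control-AAV wild type, with p = 0.0661 of the authors. Hspa8 values were higher in all 4 pools of disease-model mice than in their wild-type pools. The log2 fold change was only 0.02 at 4 weeks and 0.05 in CHL2. The same sign in all 4 genotype comparisons was found for 26.7% of 12830 genes. Hsf1, which encodes HSF1, was not called in any table. It had 18.9 and 19.1 FPKM in R6/1 and wild type at 4 weeks, 17.4 and 17.7 FPKM at 8 weeks, and 21.2 and 21.5 FPKM in CHL2 and wild type. At 10 weeks it had 22.0 FPKM in control-AAV R6/1 and 19.5 FPKM in control-AAV wild type (log2 fold change 0.17, p = 0.439 by the authors' deposited table).

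**Figure D2:**
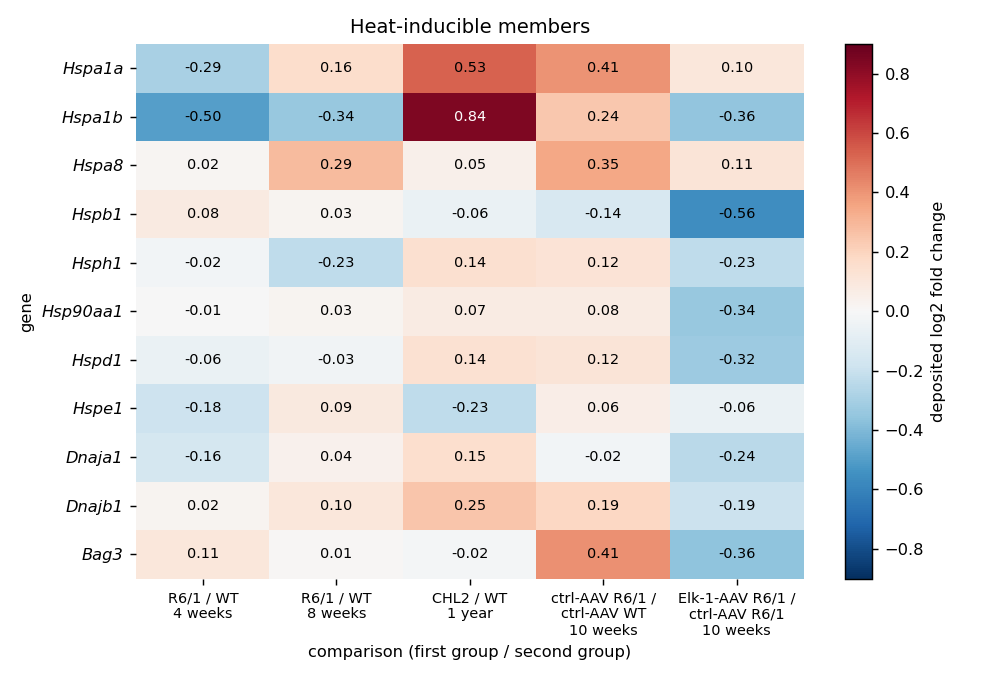
Deposited log2 fold changes (first group over second) of the 11 heat-inducible members in the 5 comparisons, with the value printed in each cell and shown by colour. Hspa1b in CHL2 (0.84) is the only called cell; 9 of 11 values are negative under Elk-1 AAV, where the control-AAV R6/1 pool is the same as in the column to its left.

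Among 40 J protein genes, Dnajb5 fell in R6/1 striatum at 8 weeks. Dnajb5 (mm9 chromosome 4, 42965965 to 42971604), an Hsp40 known in heart muscle cells for a complex with the deacetylase HDAC4, had 40.0 FPKM in R6/1 and 53.1 FPKM in wild type (log2 fold change -0.41, q = 0.0199 by the authors' deposited table). At 10 weeks, control-AAV R6/1 had 66.4 FPKM of Dnajb5 and control-AAV wild type 94.5 FPKM (log2 fold change -0.51, p = 0.008, q = 0.160 by the authors' deposited table). At 4 weeks it had 45.9 FPKM in R6/1 and 48.7 FPKM in wild type, and at 1 year 44.1 FPKM in CHL2 and 45.2 FPKM in wild type. Its level was lower in all 4 disease-model pools, with a gap of -0.09 and -0.03 log2 units in the last 2. Under Elk-1 AAV it had 69.6 FPKM against 68.0 FPKM with control AAV.

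Projection neuron markers moved the same way. Of 10 markers, 9 fell in R6/1 at 8 weeks, with a summed FPKM of 1277 in R6/1 and 3325 in wild type. In the 10-week genotype comparison 9 of 10 fell, with sums of 1156 in R6/1 and 2520 in wild type. In CHL2 all 10 fell while Dnajb5 differed by -0.03. Cortical excitatory markers were lower too, at 196 FPKM in R6/1 and 313 FPKM in wild type at 8 weeks and at 310 and 587 FPKM in the 10-week genotype comparison. Choroid plexus markers were lower at 8 weeks, with 4 of 6 called. In the 10-week genotype comparison all 6 had higher values, with 3 called. Septal and hypothalamic markers were higher in the 10-week genotype comparison, with 6 of 7 called and sums of 372 FPKM in R6/1 and 71.1 FPKM in wild type. The part of these markers in the Dnajb5 result was not tested.

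Of 6 measured J proteins known to suppress polyglutamine aggregation or closely related to those, Dnajb5 was the only one called in any table. Dnajb6 had 15.3 FPKM in R6/1 and 14.6 FPKM in wild type at 8 weeks, and 32.1 FPKM against 38.1 FPKM in the 10-week genotype comparison. Dnajb2, a ubiquitin-binding J protein of neurons, had 91.5 FPKM in control-AAV R6/1 and 67.0 FPKM in control-AAV wild type (log2 fold change 0.45, p = 0.021, q = 0.296 by the authors' deposited table). Dnajb14, a J protein of the endoplasmic reticulum membrane, had the lowest p of the members at 4 weeks, with 13.7 FPKM in R6/1 and 10.1 FPKM in wild type (log2 fold change 0.44, p = 0.0017, q = 0.189 by the authors' deposited table). At 8 weeks it was level, at 15.3 and 15.6 FPKM. Dnajb2 and Dnajb6 fall outside the naming rule and were chosen after their values were seen.

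Dnajc genes, with 25 members, held no called gene. Dnajc12, a partner of the aromatic amino acid hydroxylases, had 11.8 FPKM in R6/1 and 8.43 FPKM in wild type at 8 weeks (log2 fold change 0.48, p = 0.0145, q = 0.158 by the authors' deposited table). At 10 weeks it had 18.5 FPKM in control-AAV R6/1 and 11.7 FPKM in control-AAV wild type (log2 fold change 0.65, p = 0.030, q = 0.358 by the authors' deposited table). At 4 weeks the R6/1 and wild-type values were 9.56 and 9.82 FPKM. Dnajc21, a factor of large ribosomal subunit assembly, had 8.93 FPKM in control-AAV R6/1 and 15.6 FPKM in control-AAV wild type (log2 fold change -0.81, q = 0.1002 by the authors' deposited table). In the other 3 genotype tables its log2 fold change lay between 0.02 and 0.06. Dnajc25 was low and uncalled, with 1.98 FPKM in control-AAV R6/1 and 1.22 FPKM in control-AAV wild type.

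No gene of the list for synaptic vesicles and clathrin (Hspa8, Dnajc5, Dnajc6 and Dnajc13) was called. Dnajc5, the cysteine string protein of synaptic vesicles, had 98.6 FPKM in R6/1 and 93.6 FPKM in wild type at 8 weeks, and 92.9 FPKM in CHL2 against 84.0 FPKM in wild type. Dnajc6 (auxilin), which recruits Hspa8 to clathrin coats, had 70.8 FPKM in CHL2 and 59.97 FPKM in wild type (log2 fold change 0.24, p = 0.044, q = 0.353 by the authors' deposited table). Dnajc13, a J protein of endosomes, had 7.39 FPKM in control-AAV R6/1 and 8.35 FPKM in control-AAV wild type. All 4 genes had higher values at 4 weeks and in CHL2, 3 had higher values at 8 weeks and 2 in the 10-week genotype comparison. These counts held after length correction, but the median log2 fold change shrank in 2 tables. It went from 0.12 to 0.04 at 4 weeks and from 0.14 to 0.05 in CHL2. At 8 weeks it went from 0.10 to 0.12, and in the 10-week genotype comparison from -0.02 to -0.03. Dnajc7, which binds both Hsp70 and Hsp90, had lower values in all 4 genotype tables, with log2 fold changes of -0.06, -0.19, -0.12 and -0.07. Dnaja2, the most abundant Dnaja gene, lay between -0.11 and 0.07 in every comparison.

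Dnajb13 had the most extreme fold change of any member and was called nowhere. It encodes a J protein of the radial spoke of motile cilia. Its level was 0.750 FPKM in R6/1 and 1.05 FPKM in wild type at 4 weeks, and 0.342 and 0.688 FPKM at 8 weeks. In the 10-week genotype comparison it stood at 2.07 FPKM in R6/1 and 0.358 FPKM in wild type. The log2 fold changes were -0.49, -1.01 (p = 0.065) and 2.53 (p = 0.063) in the authors' deposited tables, so its direction at 10 weeks was the opposite of that at 8 weeks.

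Markers of ependymal cells and cilia mostly had values on the side of Dnajb13 at 8 and 10 weeks but were split at 4 weeks. At 4 weeks 3 of 6 listed markers had higher and 3 lower values, with sums of 25.5 FPKM in R6/1 and 28.4 FPKM in wild type. At 8 weeks 5 of 6 listed markers had lower values, with sums of 19.7 FPKM in R6/1 and 24.7 FPKM in wild type. In the 10-week genotype comparison all 5 listed markers had higher values, with sums of 33.8 FPKM in R6/1 and 16.5 FPKM in wild type. Foxj1, the master regulator of motile cilia, rose there, with 9.23 FPKM in control-AAV R6/1 and 3.35 FPKM in control-AAV wild type (q = 0.00548 by the authors' deposited table). The choroid plexus sums were 583 FPKM in R6/1 and 1512 FPKM in wild type at 8 weeks, and 1579 and 343 FPKM in the 10-week genotype comparison. No marker of either list was at 0, and their part in the Dnajb13 values was not tested.

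**Figure D3:**
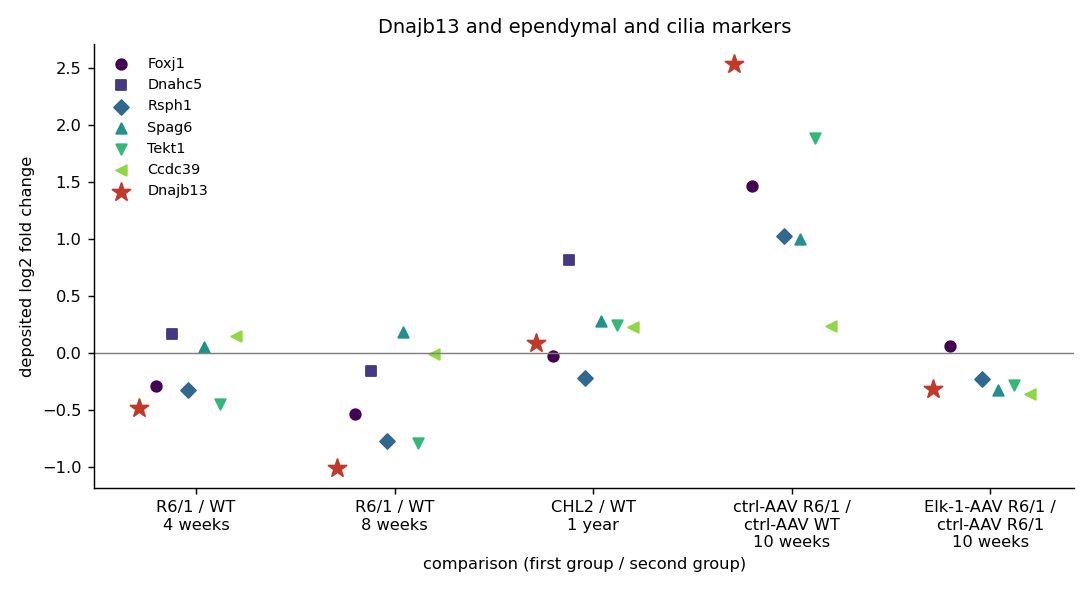
Deposited log2 fold changes (first group over second) of Dnajb13 (star) and of 6 markers of ependymal cells and cilia in the 5 comparisons. Dnajb13 lies at -1.01 at 8 weeks and 2.53 in the 10-week genotype comparison. At 8 weeks 5 of 6 markers lie below 0, Ccdc39 at only -0.01, and Spag6 lies above 0, at 0.18. In the 10-week genotype comparison all 5 listed markers lie above 0.

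Bag co-chaperones held no called gene, and Bag5 and Bag2 had the most repeated differences. Bag5, a nucleotide exchange factor of Hsp70, was lower in every disease-model pool. It had 27.5 FPKM in R6/1 and 29.0 FPKM in wild type at 4 weeks, 25.4 and 31.3 FPKM at 8 weeks, 27.8 FPKM in CHL2 and 34.3 FPKM in wild type, and 32.1 and 43.6 FPKM in the 10-week genotype comparison. The last 3 log2 fold changes were -0.30, -0.30 and -0.44, with p = 0.0252, 0.012 and 0.030 and q of 0.228, 0.170 and 0.359 in the authors' deposited tables.

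Bag2, an inhibitor of the ubiquitin ligase CHIP, had 5.50 FPKM in R6/1 and 3.95 FPKM in wild type at 8 weeks. In the 10-week control-AAV groups it had 8.66 FPKM in R6/1 and 5.31 FPKM in wild type. Its log2 fold changes were 0.48 and 0.70, with p = 0.034 in each and q of 0.278 and 0.383 in the authors' deposited tables. At 4 weeks it was level, at 4.51 and 4.49 FPKM. Bag1 and Bag6, the most abundant Bag genes, were not called, and Bag1 had lower values in all 4 genotype tables (0.03 at 4 weeks after length correction), with 73.9 FPKM in CHL2 and 85.7 FPKM in wild type.

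**Figure D4:**
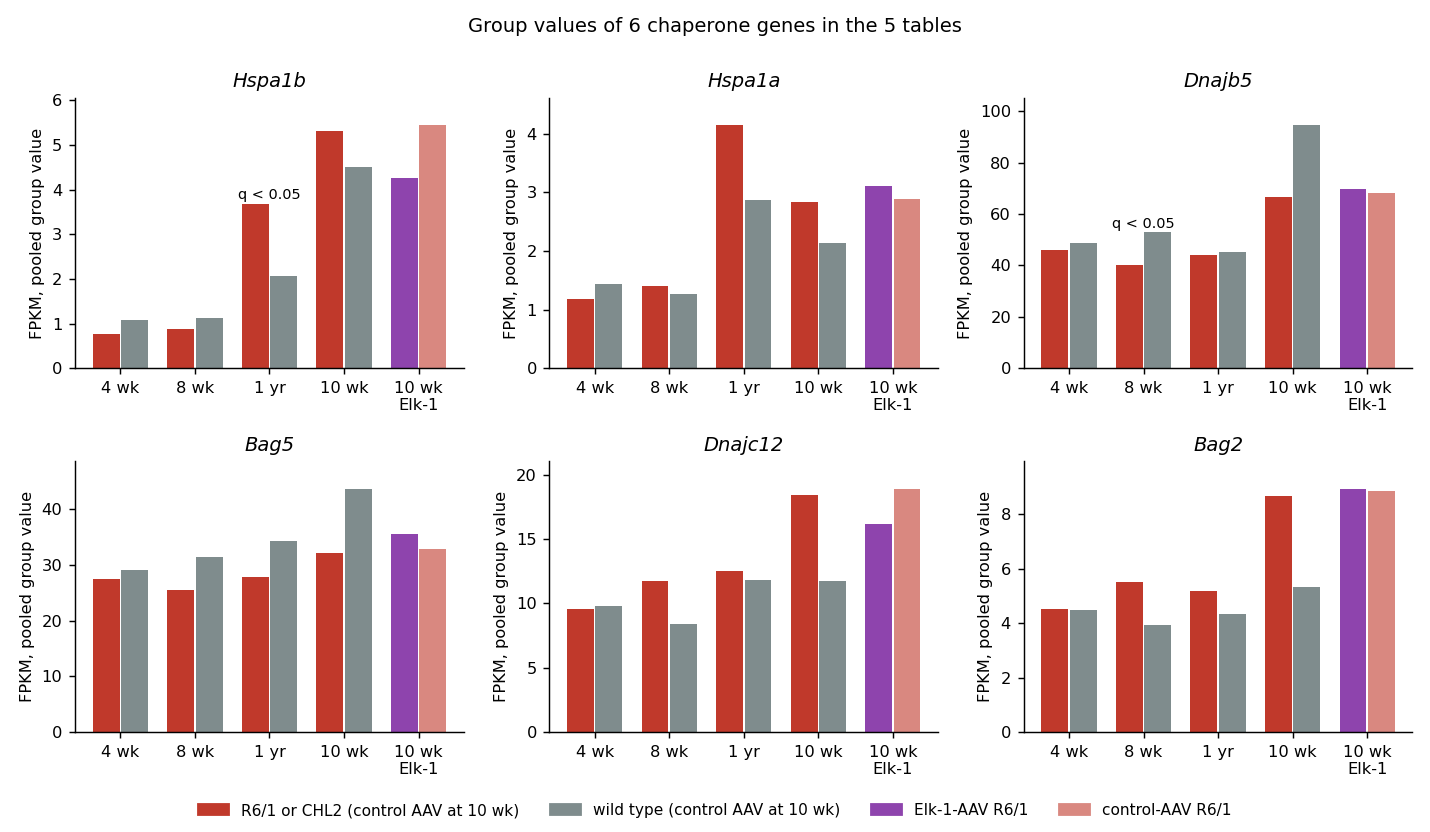
Pooled group FPKM (1 value per group, no error available) of Hspa1b, Hspa1a, Dnajb5, Bag5, Dnajc12 and Bag2 in the 5 tables, with the disease-model or Elk-1-AAV group left of the group it is set against. Bag5 and Dnajb5 are lower in the disease-model group in all 4 genotype tables, while the pair Hspa1a and Hspa1b is higher in CHL2 and in control-AAV R6/1.

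Across the 4 genotype tables, whose groups share no library, 4 of 77 members (5.19%) had an unadjusted p below 0.05 in at least 2 tables in 1 direction, against 9.7% of 12830 genes. They were Bag2, Bag5, Dnajb5 and Dnajc12. The same sign in all 4 tables was found for 21 of 77 members (27.3%), 12 higher and 9 lower, against 26.7% of genes, a share near the background. Hspa13, an Hsp70 of the endoplasmic reticulum, was among those higher, with log2 fold changes of 0.14, 0.24, 0.33 and 0.32. In CHL2 it had 19.3 FPKM against 15.4 FPKM in wild type (p = 0.00635, q = 0.115 by the authors' deposited table). Both counts were defined after the values were seen.

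The remaining classes differed little. The 3 Hsp90 genes held no call: Hsp90aa1, the inducible one, had 67.4 FPKM in R6/1 and 66.1 FPKM in wild type at 8 weeks, and the same 67.4 FPKM in CHL2 against 64.1 FPKM in wild type. Hsp90b1 had 128 FPKM in R6/1 and 156 FPKM in wild type at 8 weeks (log2 fold change -0.29, p = 0.036, q = 0.286 by the authors' deposited table). Its partner Hspa5 had 109 and 111 FPKM there.

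The cytosolic chaperonin TRiC, which folds actin and tubulin, was represented by 7 of its subunit genes. Of these, 6 had higher values at 8 weeks (median log2 fold change 0.10) and 6 in the 10-week genotype comparison (median 0.13), with none called. Cct5 had 89.3 FPKM in R6/1 and 85.4 FPKM in wild type at 8 weeks, and 155 against 138 FPKM in the 10-week genotype comparison. Cct2 and Cct6a, the other subunits named by abundance, lay between -0.09 and 0.10 log2 units in the 5 comparisons. The mitochondrial chaperonin genes Hspd1 and Hspe1, which lie head to head, were not called either, with 28.2 FPKM of Hspd1 in CHL2 and 25.7 FPKM in wild type, and 37.8 and 44.3 FPKM of Hspe1.

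Small heat shock protein genes with an Hspb symbol were low in striatum. Cryab, a small heat shock protein gene that the symbol rule leaves out, was not low. It had 103 FPKM in R6/1 and 120 FPKM in wild type at 4 weeks, and 81.4 and 99.1 FPKM at 8 weeks. At 1 year it had 103 FPKM in CHL2 and 115 FPKM in wild type. Of the Hspb genes, Hspb11, which despite its symbol encodes a subunit of ciliary transport, was highest, at 10.7 to 23.8 FPKM. Next came Hspb8, the Bag3 partner, at 8.13 to 12.1 FPKM. Hspb6 lay at 4.86 to 6.86 FPKM. Hspb2 and Hspb3, known from muscle, had values down to 0.310 FPKM. Hspb2 had 1.02 FPKM in control-AAV R6/1 and 2.91 FPKM in control-AAV wild type, with p = 0.130 of the authors, and Hspb3 had 0.708 FPKM in CHL2 and 1.04 FPKM in wild type. Neither was called in any table that lists it. Of the 50-base windows of the longest Hspb2 transcript, 28.0% also occur in Cryab, on either strand.

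In R6/1 mice with Elk-1 AAV no chaperone gene was called, and most values were lower than with control AAV. Of 76 members 48 had lower and 28 higher values, with a median log2 fold change of -0.09, and none had an unadjusted p below 0.05 in the authors' deposited table. Among the 12685 genes used for the median of all genes, 5982 had lower and 6703 higher values, with a median of 0.01. The counts in this comparison all rest on the same control-AAV R6/1 pool of 2 libraries. All 7 chaperonin subunit genes had lower values (median -0.08), as did 7 of 9 members of the endoplasmic reticulum (median -0.24; 8 of 9 after centring or length correction) and 9 of 11 heat-inducible members (median -0.24).

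Hsp90aa1 came nearest to the threshold, with 129 FPKM under Elk-1 AAV and 163 FPKM under control AAV (log2 fold change -0.34, p = 0.05035, q = 0.999 by the authors' deposited table). Hspd1 had 36.1 FPKM under Elk-1 AAV and 45.2 FPKM under control AAV. Bag3 had 4.40 against 5.66 FPKM, and Hspb1, the small heat shock protein Hsp25 of mouse, had 1.75 against 2.57 FPKM. Higher values were found for Hspa8, at 201 FPKM under Elk-1 AAV and 186 FPKM under control AAV, and for Hspa1l, an Hsp70 best known from testis, at 4.43 against 3.38 FPKM. Hspa1b had 4.26 against 5.44 FPKM while Hspa1a had 3.11 against 2.89 FPKM.

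Microglial markers, with 2 of 6 called higher, summed to 314 FPKM under Elk-1 AAV and 192 FPKM under control AAV. Septal and hypothalamic markers, with 3 of 7 called lower, summed to 43.4 FPKM under Elk-1 AAV and 381 FPKM under control AAV. Choroid plexus markers, with 1 of 6 called higher, summed to 2302 and 1618 FPKM. All 10 projection neuron markers had higher values under Elk-1 AAV, with none called and sums of 1426 and 1184 FPKM. All 5 cortical excitatory markers were higher too, with none called and sums of 410 and 318 FPKM. The part of these markers in the lower chaperone values was not tested. The control-AAV R6/1 pool of 2 libraries is also the R6/1 group of the 10-week genotype table, where its values are smaller by a near-constant factor (median ratio 1.02), so an opposite sign in these 2 tables is not a result.

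Genes of the same pathways outside the symbol rule were also mostly uncalled. Of heat shock factors and co-chaperones, among them Stip1, Cryab and the prefoldins, 39 were listed at 4 and at 8 weeks, 38 in CHL2 and 37 in each 10-week table. None of them was called, with 2, 5, 2, 2 and 3 at an unadjusted p below 0.05 in the 4-week, 8-week, CHL2, 10-week genotype and Elk-1 tables. Over all genes the shares at that p were 5.36%, 14.3%, 13.3%, 10.7% and 4.91%, in the same order. The shares called were 0.468%, 6.12%, 3.65%, 3.24% and 0.575%. Of the unfolded protein response, which senses misfolding in the endoplasmic reticulum, 18 genes were listed at 4 weeks, 8 weeks and in CHL2 and 16 in each 10-week table. In R6/1 at 8 weeks 1 of 18 fell, where 6.12% of all genes were called. In CHL2 1 of 18 fell, where 3.65% of all genes were called. None was called in the other 3 tables.

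Atf6, one of the sensors of that response, fell at 8 weeks, with 10.4 FPKM in R6/1 and 16.9 FPKM in wild type (log2 fold change -0.69, q = 0.00160 by the authors' deposited table). With control AAV at 10 weeks Atf6 had 8.55 FPKM in R6/1 and 12.99 FPKM in wild type (log2 fold change -0.60, q = 0.0781 by the authors' deposited table). Trib3, a pseudokinase induced by stress through Ddit3, fell in CHL2, with 0.439 FPKM in CHL2 and 1.02 FPKM in wild type (log2 fold change -1.22, q = 0.0251 by the authors' deposited table). Its values were also lower in R6/1 at 4 weeks, at 0.475 and 0.867 FPKM, and at 8 weeks, at 0.363 and 0.644 FPKM, and it is not listed in the 10-week tables. Ddit3 itself was not called, with 24.5 FPKM in CHL2 and 31.8 FPKM in wild type. Among members, Hspa5 and Hsp90b1, classical targets of Atf6, were not called in any table.

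Some members share sequence with other genes. For 14 of 78 members over 20% of the 50-base windows of the longest transcript also occur in transcripts of other genes. Besides the Hspa1 pair they include Hsp90aa1 (58.5%), Hspa8 (52.7%), Hspb1 (51.6%) and Hspd1 (44.8%), whose matches lie mainly in pseudogenes. Hspb2 (28.0%) is also among them, with its matches in Cryab. How the authors assigned such reads is not given in the sources used here, so values of these genes are uncertain. Dnajb5 and Bag5 are not among the 14.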

How the data were processed

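RNA was measured by TruSeq sequencing of total RNA from mouse striatum, per the labels' protocols. Cuffdiff, Cufflinks, TopHat and Bowtie, with genome mm9, are the tools and build listed in the submitters' processing notes; in the sources used here, versions, annotation and strand setting are not given. For each of 5 comparisons the authors deposited a table, of 14539, 14320, 14402, 12980 and 12701 rows, with 1 pooled FPKM value per group. The same deposited tables hold the authors' log2 fold change, their test statistic (a score) and their p-value and q-value; the p-values do not go below 5e-05, and each q-value was found to be the Benjamini-Hochberg value of its p-value within the table.

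Values per library and depths are unknown, so no test of library spread was run, and calls are the authors' deposited q below 0.05. The limma or replicate fits that need a value per library were not made. From the deposited values, counts and medians were computed in Python 3.11.15 with pandas 2.3.3, for medians over genes whose mean FPKM was 0.5 or more. Alternatives changed the q threshold, the added value before the log, the filter, the centring, the transcript length (longest in GENCODE M21, in 20 bins) and members at a position shared with another gene. The length correction and the Benjamini-Hochberg step were tested on simulated data. The shared-position step and the symbol rule were tested on small examples, and the counting steps were not tested.

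Members and lists were chosen with earlier results of these data known. Named genes are called members, the 3 most abundant per class, the 5 with the largest absolute log2 fold change per table, all heat-inducible members, and Hsf1 and called genes of the pathway lists; others are named as examples of their list after their values were seen. Positions are mm9 as listed; promoters are GRCm38.p6 and the builds were not mixed.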

Additional observations from a re-analysis of the deposited data

How the results depend on the processing

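Calls rest on the authors' test and on pooled values. With q below 0.01 in the authors' deposited tables, the count of called members was 0 in R6/1 at 8 weeks and 0 in CHL2, since q was 0.0199 for Dnajb5 and 0.0128 for Hspa1b. The other 18 alternatives for the counts (q below 0.1, a minimum mean FPKM of 0.5, no members at a shared position, and q below 0.01 in the other 3 tables) gave the same counts as reported. All 35 alternatives for the median change stayed within 0.05 log2 units of the reported median; the sign changed in 1, the 4-week median, at -0.01 as reported and 0.00 after subtracting the median of genes of similar transcript length. Hspa1b in CHL2 ranged from 0.61 with log2(FPKM + 1) to 0.87 with that length correction. Dnajb5 at 8 weeks lay between -0.42 and -0.40. Log2 fold change went with transcript length over all genes, with Spearman's rho of 0.46 at 4 weeks and 0.38 in CHL2. No paired analysis was possible because the tables hold no value per library; leaving out each replicate was not run for the same reason. The unknown depth per library limits the low genes most, among them Hspb2, Dnajb13 and the Hspa1 pair.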

Other observations

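Levels of several chaperones in wild-type striatum differed between the tables, which were normalized separately and were not tested against each other. Hspa1b had 4.50 FPKM in control-AAV wild type at 10 weeks and 2.06 FPKM in wild type at 1 year, against 1.13 FPKM in wild type at 8 weeks and 1.08 FPKM at 4 weeks. Hsp90aa1 had 151 FPKM in control-AAV wild type and 64.1 to 66.1 FPKM in the 3 wild-type groups without AAV. Hspe1 had 70.4 FPKM in control-AAV wild type and 28.2 to 44.3 FPKM in the others. Other members had lower levels there: Dnajb14 had 3.41 FPKM in control-AAV wild type and 15.6 FPKM in wild type at 8 weeks, a log2 ratio of -2.20. The log2 ratio of the same groups was -0.94 for Dnajb13, -0.90 for Hspa12b and -0.77 for Dnajc16. Over all 78 members the median log2 ratio of control-AAV wild type over wild type at 8 weeks was 0.32, and over 12860 genes it was 0.10. For wild type at 1 year over wild type at 8 weeks these medians were 0.13 and 0.10. The AAV, age, normalization and any other difference between these groups of libraries cannot be told apart in these values. The ratios were not corrected for transcript length.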
